A study of Mus musculus with 6 samples.

Results

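Circular RNAs (circRNAs) are closed RNAs made when a downstream splice donor is joined back to an upstream splice acceptor, and a single host gene can give several circles that use different or partly shared splice sites. The circRNAs described here came from the hosts that had many circles. The 2 deposited tables of circRNAs higher or lower in HuD KO, with 2488 circRNAs, were pooled with the study's list of circRNAs bound by HuD, giving 3056 circRNAs in all. Every circRNA whose named host had 4 or more circRNAs in this pool was kept, which left 163 circRNAs of 34 hosts, out of 14236 circRNA probes on the array. The choice used no expression value beyond the deposited tables, but those tables were themselves selected on the contrast of HuD KO with WT. The changes of circRNAs from the tables are therefore given as descriptions without a test.

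RNA was taken from the striatum of adult male mice on a C57BL6 background, either HuD KO (Elavl4 -/-, 3 mice) or WT littermates (3 mice), with 1 array per mouse. Per the labels, linear RNA was digested with RNase R before random-primed labelling with Cy3. The HuD-bound list came from other animals, since HuD was precipitated through a myc tag from the striatum of mice that overexpress tagged HuD under the Camk2a promoter. The labels do not state an age beyond adult. No circRNA of Elavl4 was in the pool, so the knockout itself was not checked here. The 3 WT arrays were read in 1 scan, HuD KO replicates 1 and 2 in another and HuD KO replicate 3 in one of its own, so scan and genotype cannot be told apart. On each array, 84.0% to 96.7% of circRNA probes passed the scanner's flag for a signal well above background. In bulk striatum, fewer cells of a type and less RNA per cell cannot be told apart. Levels below are log2 intensities on a scale where 0 is the 75th percentile of that array, and a change is the mean of the 3 HuD KO arrays minus the mean of the 3 WT arrays on that scale.

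HuD, encoded by Elavl4, is a neuronal member of the ELAV family of RNA-binding proteins and binds AU-rich stretches of RNA, where it is known for stabilizing messenger RNAs. Brain holds many circRNAs, a good number of them from genes of synaptic proteins. A microarray reads a circle through the sequence that spans its back-splice junction, in which the end of the circle's last exon is followed by the start of its first exon. Circles that share a donor or an acceptor thus share part of that sequence.

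The 60-base junction sequences of 12 circRNAs are shown to make that sharing visible, because the comparison of circles within a host rests on it. Each sequence is lower case, with capitals for the longest run it has in common with the circle printed next to it. All are as listed with the arrays, and the genome build of the positions is not stated there. Of 159 circRNAs whose host was found by symbol or synonym in RefSeq on GRCm38.p6, 157 lay within that gene's span on that build. The first 4 circles, from Anks1b on the plus strand of chromosome 10, combine 2 listed starts with 2 listed ends. In each set of circles with the same end, the capitals mark donor-side sequence.
mmu_circRNA_017958 (chr10:90895098-90923602): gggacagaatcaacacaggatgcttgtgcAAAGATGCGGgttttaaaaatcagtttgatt
mmu_circRNA_010003 (chr10:90914695-90923602): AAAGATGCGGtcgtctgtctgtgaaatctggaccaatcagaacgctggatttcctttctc
mmu_circRNA_002573 (chr10:90895098-90948672): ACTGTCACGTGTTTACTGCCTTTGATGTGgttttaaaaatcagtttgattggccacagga
mmu_circRNA_005340 (chr10:90914695-90948672): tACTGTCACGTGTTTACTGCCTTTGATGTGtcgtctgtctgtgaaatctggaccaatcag
The next sequences belong to Zfp644 circles on the minus strand of chromosome 5, which share the listed end and differ in the start.
mmu_circRNA_39097 (chr5:106632924-106638635): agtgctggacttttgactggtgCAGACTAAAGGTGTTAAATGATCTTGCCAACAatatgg
mmu_circRNA_014393 (chr5:106634830-106638635): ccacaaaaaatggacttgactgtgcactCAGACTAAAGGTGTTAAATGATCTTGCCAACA
The Magi1 and Nbea sequences that follow, from the minus strands of chromosomes 6 and 3, belong to circles whose ends were listed within 5 bases of each other, and they overlap along most of their length.
mmu_circRNA_018247 (chr6:93792346-93815825): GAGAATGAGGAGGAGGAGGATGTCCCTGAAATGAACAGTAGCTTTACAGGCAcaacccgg
mmu_circRNA_19425 (chr6:93792345-93815828): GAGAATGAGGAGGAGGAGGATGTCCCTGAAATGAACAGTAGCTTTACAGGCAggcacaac
mmu_circRNA_19281 (chr3:55853769-55891679): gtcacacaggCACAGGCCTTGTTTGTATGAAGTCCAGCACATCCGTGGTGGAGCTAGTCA
mmu_circRNA_005357 (chr3:55853770-55891674): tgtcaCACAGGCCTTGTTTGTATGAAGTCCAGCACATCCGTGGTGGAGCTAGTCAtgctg
The last sequences come from Opcml circles on the plus strand of chromosome 9 that share a listed start, and only a short run is common to them.
mmu_circRNA_43906 (chr9:28039050-28039884): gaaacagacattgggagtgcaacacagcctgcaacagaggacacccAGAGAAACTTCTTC
mmu_circRNA_43907 (chr9:28039050-28045364): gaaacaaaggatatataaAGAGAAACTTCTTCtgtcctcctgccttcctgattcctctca

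Most circles of these hosts were higher in HuD KO. Of the 163 circRNAs, 116 were in the deposited table of higher circRNAs, 16 in the table of lower ones and 31 on the HuD-bound list alone. Over all 6 arrays the change was above 0 for 145 circRNAs, from all 34 hosts, and below 0 for 18, from 12 hosts. The 145 had a median change of 1.43 and the 18 a median of -1.89, against -0.11 over all 13445 probes tested. All 145 were well above background on all 6 arrays, as were 14 of the 18. The other 4 passed the filter through WT alone, which by itself favours a lower value in HuD KO. Over the 11821 probes well above background on all 6 arrays the median change was 0.02. All HuD KO arrays lay above all WT arrays in 140 of the 145, and below them in 16 of the 18. Of all tested probes, 29.8% had every HuD KO array above and 40.4% had every HuD KO array below the WT arrays. Membership of the deposited tables used this contrast, so nothing is read from the difference. The 31 circRNAs on the bound list alone comprised 29 with a change above 0 and 2 with a change below 0.

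The 34 hosts comprised 22 whose circRNAs were all higher, 12 with circRNAs in both directions and 0 whose circRNAs were all lower. Zfp644, which encodes a zinc finger protein, had the most circles with 9. Ptpn4, a non-receptor tyrosine phosphatase, had 7. Anks1b, a scaffold of the postsynaptic density, Atrnl1, an attractin-like membrane protein, and Ttc3, an E3 ubiquitin ligase, had 6 each. The remaining hosts comprised 13 with 5 circRNAs and 16 with 4.

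**Figure D1:**
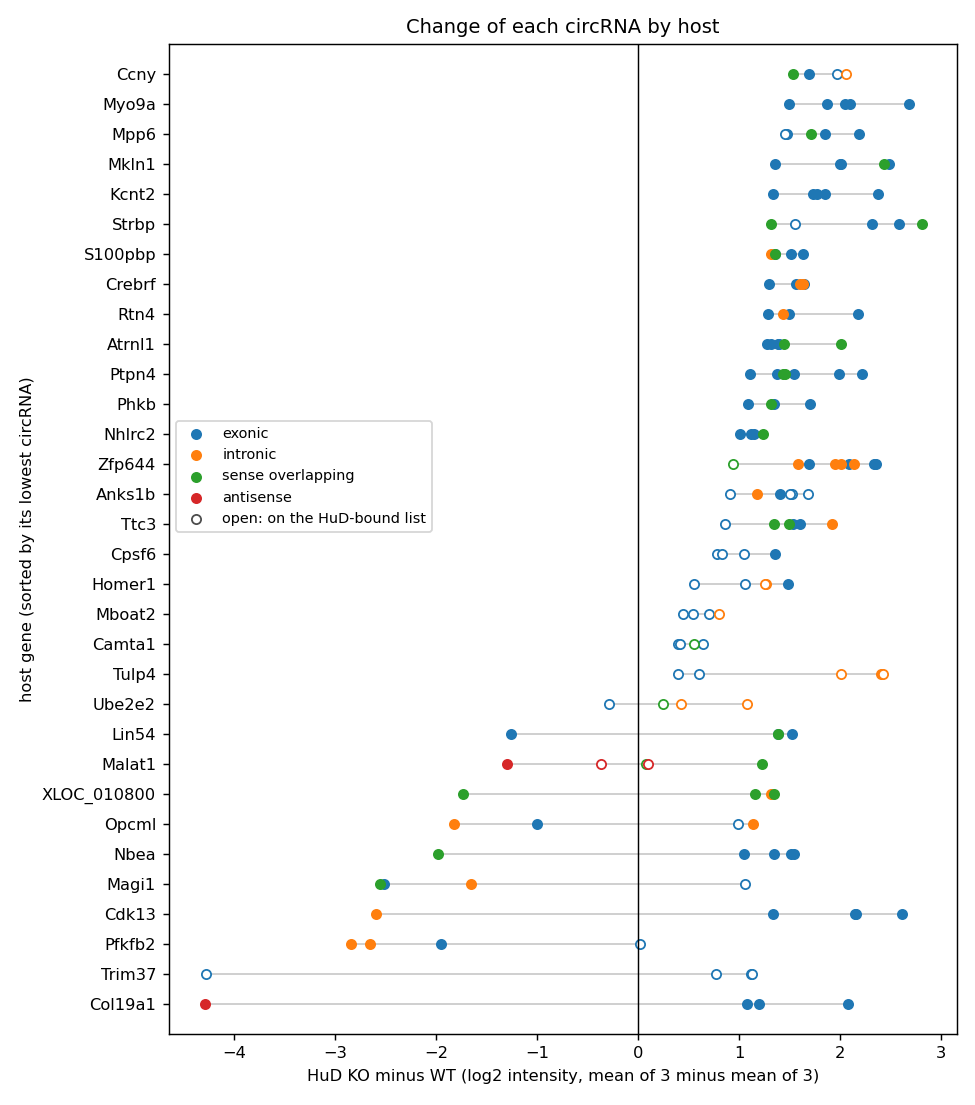
Each point is a circRNA, placed by its change in HuD KO (x axis, log2 intensity, mean of 3 minus mean of 3) in the row of its host (y axis, sorted by the lowest circRNA). Colours give the listed class, open points are on the HuD-bound list, and grey lines span each host. The points of most hosts lie wholly to the right of 0, and Trim37 spans the widest range among hosts in which each circle passed the background flag on each of the 6 arrays. The lowest point of Col19a1 was not well above background on any HuD KO array, so the length of its line is not measured.

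The number of circles a host had in the pool went along with the direction of the deposited calls. That number was itself largely counted from these calls, so nothing is read from the relation. Among table circRNAs of hosts with 1 circle in the pool, 30.3% were in the table of higher circRNAs. The share was 59.97% for hosts with 2 circles, 86.0% for hosts with 3 and 87.9% for hosts with 4 or more. Signal rose over the same series. The median circRNA stood at the 63.4th percentile of mean signal among tested probes for hosts with 1 circle, and at the 67.7th, 80.3rd and 90.0th percentile for hosts with 2, 3 and 4 or more. In all tested probes the called direction varied with signal too, with 51.7% called higher and 17.7% called lower in the brightest 10% of probes, and 5.58% called higher and 74.1% called lower in the dimmest 10%. Dim probes could be tested through WT alone, where the filter itself favours a lower call. The shares in the dimmest 10% may thus be partly set by the filter. The parts of signal and of the filter in the pattern were not tested. Hosts with 4 or more circles had a median gene length of 132966 bp in RefSeq (33 hosts with a length) and those with under 4 a median of 76145 bp (2096 hosts).

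Compared with the pool's other circRNAs with a host, fewer members were exonic. The classes listed with the arrays were exonic for 63.8% of the members and for 80.1% of the 2784 circRNAs of hosts with fewer circles. Among the 163, the 104 exonic circRNAs had 98 higher and 6 lower, the 28 intronic had 23 and 5, and the 26 sense overlapping ones had 23 and 3. The 5 antisense circRNAs had 1 higher and 4 lower, and 4 of the 5 came from Malat1 and Col19a1. The members spanned from 64 to 517759 bp between listed ends, with a median of 16246 bp. The motif ATTTA, the core of AU-rich elements, was searched in the 60-base sequences on both strands. It was found on either strand in 11.7% of the members (19 of 163) and in 7.49% of all 3056 pooled sequences. On either strand it occurred in 3 of the 43 HuD-bound members and in 16 of the other 120, and in the listed orientation in 3 and 7. A match in this short window describes the letters only.

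The test of HuD KO against WT could be applied to hosts that reached 4 circles on the HuD-bound list alone, since that list came from immunoprecipitation in other mice. The list was also read on circRNA arrays, so the choice and the test share probes. The hosts were Anks1b, Homer1, Camta1, Mboat2, Tulp4 and Ube2e2, with 24 HuD-bound circRNAs. In Homer1, Camta1, Mboat2 and Tulp4, 2 of the 4 had both ends listed within 5 bases of each other. These hosts reached 4 only with both counted, so the 24 calls are not 24 separate readings. By limma with Benjamini-Hochberg adjustment over all 13445 probes, 20 of the 24 were higher in HuD KO and 0 were lower, where 26.2% of all probes were called higher and 37.2% lower. With a further requirement of a fold change over 2 the count was 9. At an unadjusted p under 0.05 the counts were 21 higher and 0 lower, and the equal-variance test of the study's methods gave 18 higher and 0 lower. The other 633 tested circRNAs of the bound list had 41.1% called higher and 14.5% called lower. The shares over all probes include probes that passed the filter through WT alone, where the filter itself favours a lower call. The 24 were well above background on all 6 arrays. With all probes held to that, 11821 were tested, their median change was 0.02, and 20 of the 24 were called higher. The 24 had a median signal at the 93.6th percentile of tested probes, and in the brightest 10% of all probes 51.7% were called higher. The count fell to 13 without WT replicate 2, to 13 with scan as a random block, and to 5 with 2 lower with scaling by the control probes for circRNAs, a setting that moved the median of all tested probes to -0.90. On that scaling 23 of the 24 were above the median of all probes. Scaling that takes a single value off each array moves all probes alike, so there this count could not change. It was also 23 with quantile normalization and with normexp, which do not move all probes alike.

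The 4 HuD-bound circles of Anks1b were all higher. They are the 4 combinations of 2 starts and 2 ends printed above. The level of mmu_circRNA_005340 was 3.85, 3.71 and 3.66 in WT and 5.88, 5.61 and 4.76 in HuD KO. Its change was 1.68 ± 0.274 (SE, n = 3 per group, limma adjusted p = 0.00119). The level of mmu_circRNA_017958 was 5.05, 4.85 and 4.68 in WT and 6.19, 5.81 and 5.30 in HuD KO, so that the groups did not overlap here either. Its change of 0.90 ± 0.234 (limma adjusted p = 0.0106) was the smallest of the 4, and its call was lost with the same sign in 4 of 20 alternative settings, down to 0.11 (limma adjusted p = 0.633) with scaling by the control probes. The other combinations, mmu_circRNA_002573 and mmu_circRNA_010003, changed by 1.52 ± 0.246 and 1.51 ± 0.283 (limma adjusted p = 0.00115 and 0.00234). The change of mmu_circRNA_017958 was below that of each other combination by 0.60 to 0.78, with the arrays of the groups apart in all 3 comparisons (exact permutation test, two-sided, p = 0.1, adjusted p = 0.18 over 36 pairs).

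Homer1, whose protein links metabotropic glutamate receptors to the postsynaptic scaffold, had 4 HuD-bound circles, all called higher. Of these, mmu_circRNA_19101 and mmu_circRNA_010239 had both ends listed within 5 bases of each other. The level of mmu_circRNA_19101 was 2.99, 2.77 and 2.16 in WT and 4.20, 4.03 and 3.49 in HuD KO. The groups were apart, and the change was 1.27 ± 0.267 (limma adjusted p = 0.00407). The level of mmu_circRNA_26706, a circle of 5585 bp that lies downstream of the others, was -0.10, -0.28 and -0.79 in WT and 0.08, 0.14 and 0.29 in HuD KO. Its change was 0.56 ± 0.198 (limma adjusted p = 0.0388), a call lost with the same sign in 8 of 20 alternative settings and reversed in 1, and the other HuD-bound circles changed by 1.06 and 1.25. Another circle, which was on the table of higher circRNAs and not on the bound list, mmu_circRNA_26704, changed by 1.49.

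Mboat2, a lysophospholipid acyltransferase, gave 4 circles from the same listed start at position 24878190 of chromosome 12. Of these, mmu_circRNA_018655 and mmu_circRNA_19062 end 2 bases apart. All 4 were called higher, and their changes lay between 0.44 and 0.80. The call of mmu_circRNA_013240 was lost with the same sign in 3 of 20 alternative settings, and those of mmu_circRNA_006045 and mmu_circRNA_19062 in 1 each. Scaling by the control probes turned the sign of mmu_circRNA_013240, mmu_circRNA_006045 and mmu_circRNA_018655. The level of mmu_circRNA_19062 was 1.23, 1.35 and 1.46 in WT and 2.14, 2.22 and 2.09 in HuD KO, a change of 0.80 ± 0.135 (limma adjusted p = 0.00137). The level of mmu_circRNA_013240 was 3.95, 3.82 and 3.88 in WT and 4.32, 4.29 and 4.37 in HuD KO, a change of 0.44 ± 0.127 (limma adjusted p = 0.0164). The groups were apart in each circle of this host.

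Camta1 encodes a calmodulin-binding transcription activator, and 3 of its 4 circles were called higher. The level of mmu_circRNA_37972 was -0.55, -0.65 and -0.20 in WT and 0.18, 0.37 and -0.02 in HuD KO, a change of 0.64 ± 0.177 (limma adjusted p = 0.014). The level of mmu_circRNA_37975 was -0.74, -0.84 and -0.79 in WT and -0.32, -0.25 and -0.62 in HuD KO, a change of 0.40 ± 0.15 (limma adjusted p = 0.0484), a call lost with the same sign in 11 of 20 alternative settings and reversed in 1. The circles mmu_circRNA_010432 and mmu_circRNA_19351 share a start and end 2 bases apart. They changed by 0.41 ± 0.148 (limma adjusted p = 0.0405) and 0.55 ± 0.241 (limma adjusted p = 0.0772), and the arrays of the groups overlapped in the second. The calls of mmu_circRNA_010432 and mmu_circRNA_37972 were lost with the same sign in 8 and 4 of 20 alternative settings. Scaling by the control probes turned the sign of all 4 circles.

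Tulp4, a member of the tubby-like family, held the widest range among these hosts, with 3 of 4 circles called higher. The level of mmu_circRNA_19175 was 1.63, 1.59 and 1.88 in WT and 4.21, 4.35 and 3.80 in HuD KO, a change of 2.42 ± 0.184 (limma adjusted p = 5.41e-05). The level of mmu_circRNA_30205 was 0.48, 0.55 and 0.87 in WT and 1.15, 1.11 and 0.82 in HuD KO, so that the groups overlapped, and its change was 0.39 ± 0.167 (limma adjusted p = 0.0699). The upstream circles, mmu_circRNA_19175 and mmu_circRNA_30196, exceeded the downstream mmu_circRNA_30201 and mmu_circRNA_30205 by 1.40 to 2.03 in change. Each of those 4 comparisons gave p = 0.1 in the exact permutation test (two-sided, adjusted p = 0.18). The upstream circles have both ends listed within 5 bases of each other, so the comparisons are not separate ones.

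Ube2e2, an E2 ubiquitin-conjugating enzyme, had 2 circles called higher, 2 not called and the only HuD-bound circle of the 24 with a change below 0. The level of mmu_circRNA_27145 was 2.19, 2.08 and 2.15 in WT and 3.34, 3.21 and 3.09 in HuD KO, a change of 1.08 ± 0.136 (limma adjusted p = 0.000349). The level of mmu_circRNA_27147 was -1.62, -1.79 and -1.97 in WT and -2.27, -2.13 and -1.86 in HuD KO, with overlapping groups and a change of -0.29 ± 0.166 (limma adjusted p = 0.157). Its sign turned to 0.0359 with quantile normalization. All 6 pairs within Ube2e2 reached p = 0.1 in the exact permutation test.

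**Figure D2:**
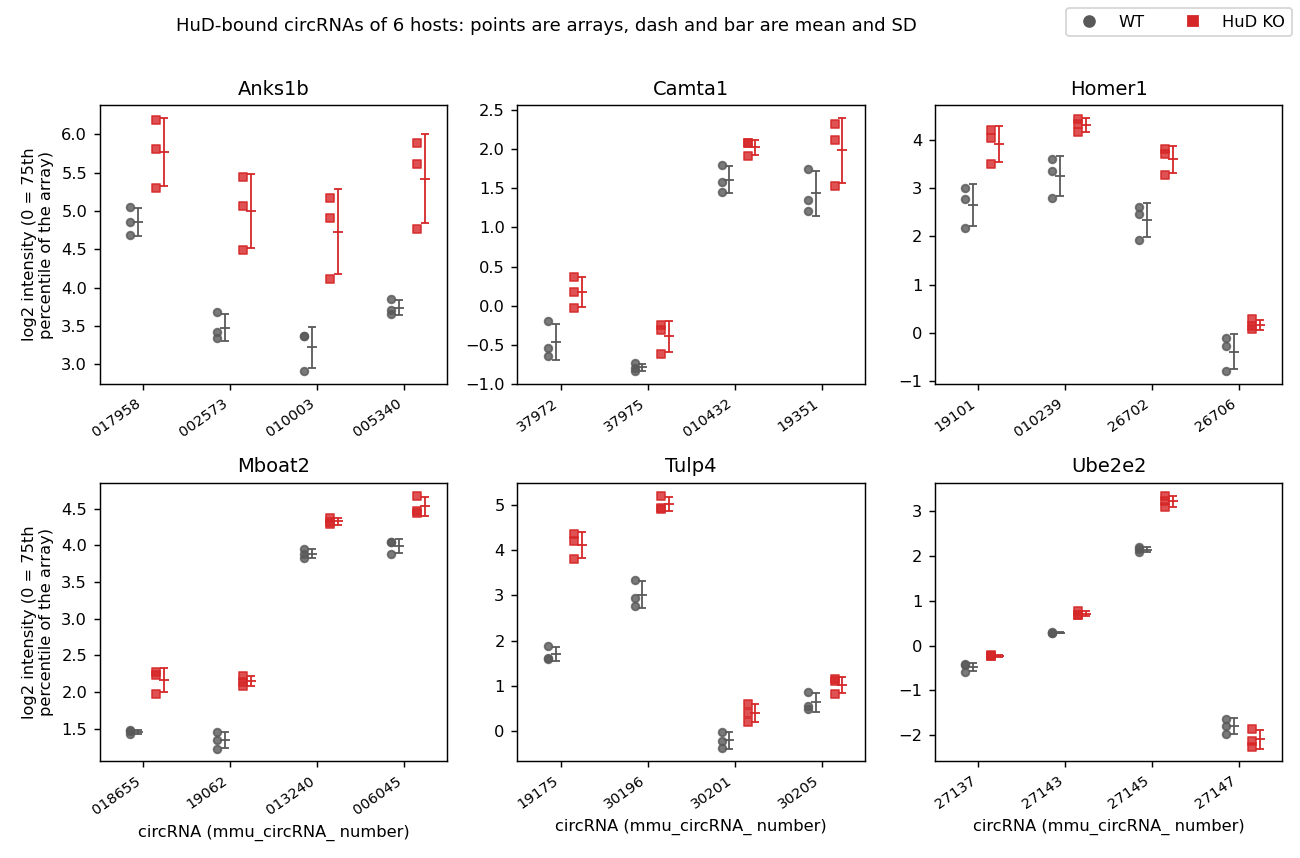
Points are the 6 arrays for each of the 24 HuD-bound circRNAs of 6 hosts (y axis, log2 intensity with 0 at the 75th percentile of the array), and the dash and bar beside them are the mean and SD of 3. HuD KO squares stand above WT circles in 21 circRNAs, and in Ube2e2 the gap runs from 1.08 to -0.29.

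Across the 6 hosts, 36 pairs of HuD-bound circles were compared for a difference in change. In 20 of them every HuD KO array gave a larger or every one a smaller difference between the circles than the WT arrays, at the smallest p that 3 against 3 arrays allow (exact permutation test, two-sided, p = 0.1), and no pair fell under an adjusted p of 0.18. Since this exact test cannot go lower with 3 arrays a group, it could call no pair different, whatever the size of the difference. By host, 6 of 6 pairs reached that p in Ube2e2, 5 of 6 in Tulp4, 3 of 6 in Anks1b and in Homer1, 2 of 6 in Mboat2 and 1 of 6 in Camta1.

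In the median, circles that shared a splice site lay closer together in change than the other circles of a host. The 163 circRNAs made 328 pairs within hosts, of which 285 changed in the same direction and 43 in opposite ones. A listed start or end was shared exactly by 71 pairs in 23 hosts, of which 98.6% had the same direction, with a median difference between their changes of 0.19. The 257 pairs that shared neither had the same direction in 83.7% and a median difference of 0.47. Pairs are not independent of each other, since a circle enters several, and no test was run on them. On the plus strand the listed start is the acceptor and on the minus strand the end is. By this reading 38 pairs shared the donor, all in the same direction, with a median difference of 0.16, and 33 shared the acceptor, 32 in the same direction, with a median difference of 0.20.

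The sequences of pairs with a shared site overlapped, which moved with the same measure. The longest common run was 30 bases in the median for pairs sharing a site and 6 bases for the others. Pairs whose sequences shared a run of 20 or more bases numbered 76, with a median difference of 0.17. The 21 pairs that shared a site but no such run had the same direction in 95.2% and a median difference of 0.26. The 231 pairs with neither had the same direction in 82.3% and a median difference of 0.52. Whether the closeness of the changes lies in the circles or in the overlap of their sequences was not tested.

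**Figure D3:**
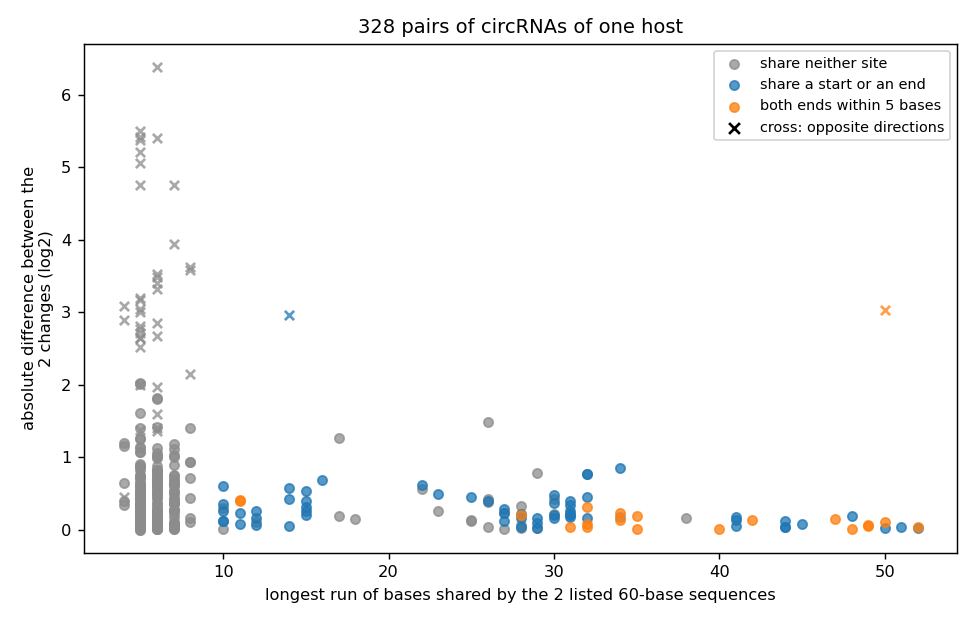
Each mark is 1 of 328 pairs of circRNAs of one host, by the longest run of bases common to their listed sequences (x axis, bases) and the absolute difference between their changes (y axis, log2). Circles are pairs in the same direction and crosses pairs in opposite directions. Of the pairs with a run of 20 or more bases, 75 of 76 are in the same direction, and the cross at 50 bases is the Nbea pair.

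Zfp644 gave the largest set of circles with a common site. The listed start at position 106634830 of chromosome 5, a donor on the minus strand, was used by 5 circles, and their changes lay within 0.40 of each other, between 1.95 and 2.35. The level of mmu_circRNA_014393, the highest of the host, was -2.02, -1.70 and -1.76 in WT and 0.70, 0.72 and 0.15 in HuD KO. Its change was 2.35. The level of mmu_circRNA_001406, the only HuD-bound circle of Zfp644 and the lowest in change, was 1.19, 1.11 and 1.58 in WT and 2.27, 2.45 and 1.97 in HuD KO. Its change was 0.94. The circle mmu_circRNA_39097, whose sequence is printed above beside that of mmu_circRNA_014393, shared 32 bases with it and changed by 1.58.

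At other shared sites the gap between the lowest and highest change varied. In Cpsf6, a subunit of the complex that cleaves pre-mRNA 3′ ends, all 4 circles started at position 117355934 of chromosome 10, and their changes ran from 0.78 to 1.36. In Nbea, which encodes the trafficking protein neurobeachin, 3 circles ended at position 56091120 of chromosome 3 and changed by 1.34 to 1.54. In Crebrf, a regulator of the transcription factor CREB3, 3 circles ended at position 26743131 of chromosome 17 and changed by 1.57 to 1.63. In S100pbp, named for binding S100P, the 5 circles used 3 starts and 3 ends and changed by 1.31 to 1.63. The widest gap among sites of 3 or more circles was in Ptpn4, where 3 circles ended at position 119765922 of chromosome 1 and their changes lay up to 0.85 apart. In all, 10 sites were used by 3 or more circles and 28 by 2. The 28 had a median gap of 0.20, and the widest of them were 2.96 at the start shared in Opcml, 0.77 at the end shared by mmu_circRNA_39097 and mmu_circRNA_014393 of Zfp644 and 0.69 at an end shared in Rtn4.

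**Figure D4:**
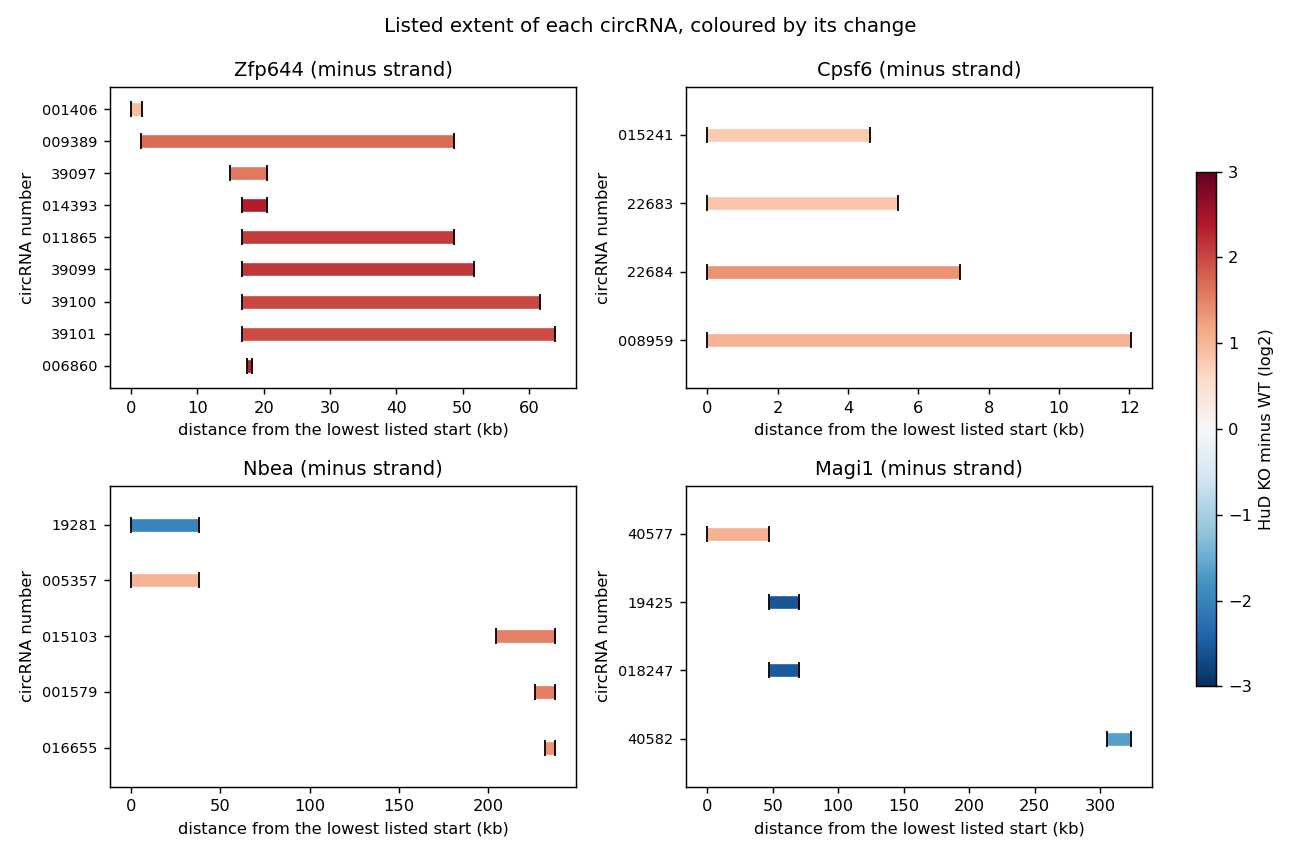
Bars are the listed extents of circRNAs of Zfp644, Cpsf6, Nbea and Magi1 (x axis, kb from the lowest listed start of the host), with ticks at their ends and colour for the change in HuD KO (log2). The 5 Zfp644 bars that begin together are all red, while the topmost Nbea bars cover nearly the same extent with opposite colours.

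Among hosts in which all circles were higher, those with the narrowest ranges included Nhlrc2, Camta1, S100pbp and Crebrf. In Nhlrc2 the changes ran from 1.004 for mmu_circRNA_016016 to 1.24 for mmu_circRNA_32781. In S100pbp they ran from 1.31 for mmu_circRNA_19336 to 1.63 for mmu_circRNA_37687, and in Crebrf from 1.30 for mmu_circRNA_30367 to 1.64 for mmu_circRNA_015157. The range of Camta1 was 0.40 to 0.64. Among the hosts with most circles, in Ptpn4 the lowest circle was mmu_circRNA_010323 with 1.105 and the highest mmu_circRNA_003388 with 2.22. In Atrnl1 the lowest was mmu_circRNA_32802 with 1.28 and the highest mmu_circRNA_19231 with 2.004. In Ttc3 the lowest was mmu_circRNA_015934, a HuD-bound circle, with 0.85 and the highest mmu_circRNA_19172 with 1.92.

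The remaining hosts with all circles higher covered varied functions. Strbp, an RNA-binding protein, ran from 1.32 to 2.81. Myo9a, an unconventional myosin, ran from 1.50 to 2.69, and Mkln1, encoding muskelin, from 1.36 to 2.48. Kcnt2, a sodium-activated potassium channel, ran from 1.33 to 2.37, and Rtn4, which encodes the neurite outgrowth inhibitor Nogo, from 1.29 to 2.18. Mpp6, a membrane-associated guanylate kinase, ran from 1.45 to 2.18, Phkb, a subunit of phosphorylase kinase, from 1.08 to 1.70, and Ccny, which encodes cyclin Y, from 1.54 to 2.05.

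Circles of 12 hosts had changes in both directions. In Col19a1, which encodes a collagen chain, 3 circles were higher and 1 was far lower. The level of mmu_circRNA_19780, listed as antisense to the gene, was -1.97, -2.11 and -2.51 in WT and -6.57, -6.45 and -6.46 in HuD KO, where it was not well above background on any array. It was at least 8.32-fold lower in HuD KO, taking on each HuD KO array the lowest signal among probes well above background where the probe's own was below that. The highest circle of the host, mmu_circRNA_015335, was at -1.43, -1.19 and -1.71 in WT and 0.49, 0.51 and 0.91 in HuD KO, a change of 2.08. The array labels RNA by random priming, and whether the antisense probe reads only 1 strand was not tested.

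Trim37, an E3 ubiquitin ligase, had the lowest change among the members well above background on all 6 arrays. The level of mmu_circRNA_24012, a HuD-bound exonic circle of 47033 bp, was 4.55, 4.46 and 4.11 in WT and -0.55, -0.04 and 0.85 in HuD KO. Its change was -4.28, with means of 4.37 ± 0.232 (SD, n = 3) in WT and 0.09 ± 0.709 (SD, n = 3) in HuD KO. The other circles of the host overlap it in extent and were higher in HuD KO. The highest of them, mmu_circRNA_24020, was at 1.09, 0.91 and 1.22 in WT and 2.08, 2.34 and 2.18 in HuD KO, a change of 1.13. Those of mmu_circRNA_24010 and mmu_circRNA_014957 were 1.11 and 0.77. Of the 4 circles, 3 were on the HuD-bound list, and those 3 included the one that was lower.

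Magi1, a scaffold of cell junctions, had 1 HuD-bound circle that was higher and 3 other circles that were lower. The nearly identical mmu_circRNA_018247 and mmu_circRNA_19425, printed above, were lower together. The former was at 4.37, 5.09 and 5.01 in WT and 2.54, 2.39 and 1.98 in HuD KO, and the latter at 4.51, 5.07 and 5.04 in WT and 2.62, 2.45 and 1.86 in HuD KO. Their changes of -2.52 and -2.56 differed by 0.04. The adjacent HuD-bound circle mmu_circRNA_40577, which overlaps the start of their listed extent, was at 0.56, 0.88 and 0.87 in WT and 1.84, 1.87 and 1.77 in HuD KO, a change of 1.06. The intronic mmu_circRNA_40582 changed by -1.66.

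In Nbea, circles with nearly the same listed ends had changes of opposite sign. The level of mmu_circRNA_19281 was 2.37, 2.47 and 2.13 in WT and 0.46, 0.44 and 0.13 in HuD KO. The level of mmu_circRNA_005357 was -0.46, -0.52 and -0.52 in WT and 0.83, 0.69 and 0.15 in HuD KO. The groups did not overlap in either, and the changes were -1.98 and 1.05, a difference of 3.03. Their sequences, printed above, share a run of 50 of 60 bases, and their starts are listed 1 base and their ends 5 bases apart. The pair was singled out after its values were seen. Of the 20 pairs with both ends within 5 bases, found in 17 hosts, the other 19 had changes of the same sign, with a median difference of 0.12 over all 20. Which circles the probes read cannot be told from the deposited files.

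Opcml, a cell adhesion protein, held the only pair with an exactly shared site and opposite directions. The level of mmu_circRNA_43906 was -0.96, -1.23 and -1.55 in WT and -0.16, -0.09 and -0.06 in HuD KO, a change of 1.14. The level of mmu_circRNA_43907 was 2.26, 2.20 and 2.06 in WT and 0.38, 0.22 and 0.46 in HuD KO, a change of -1.82. Both are intronic, start at the same base and have 14 bases in common in their sequences. Exonic circles of the same host were split as well, with 0.99 for the HuD-bound mmu_circRNA_43912 and -1.004 for mmu_circRNA_43913.

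**Figure D5:**
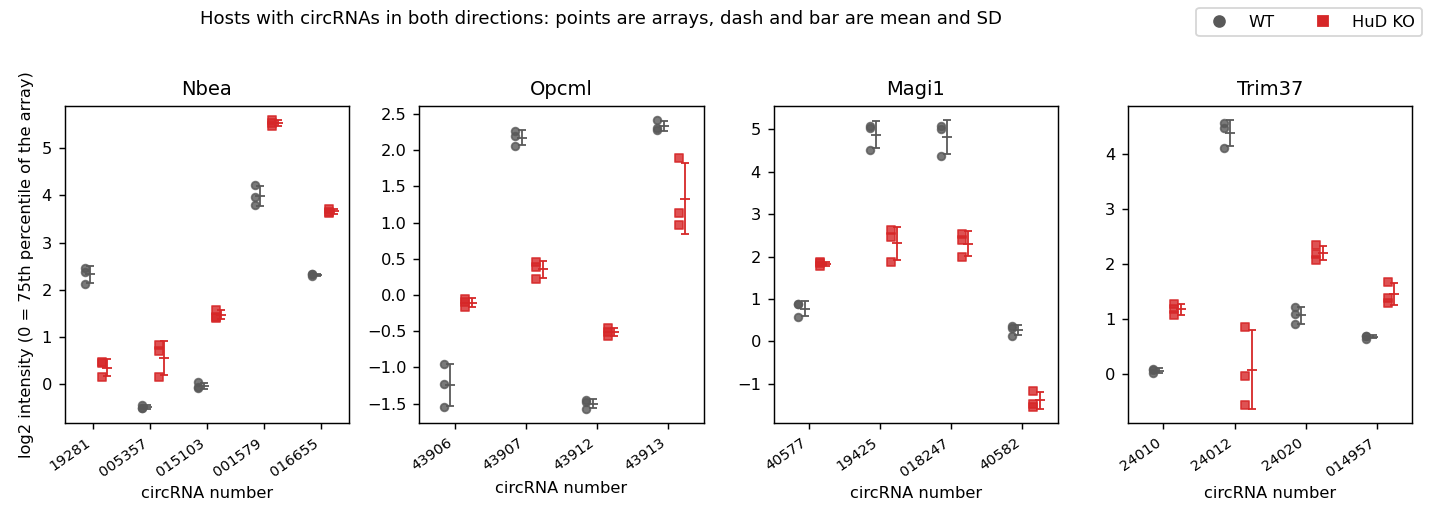
Points are the 6 arrays for each circRNA of Nbea, Opcml, Magi1 and Trim37 (y axis, log2 intensity with 0 at the 75th percentile of the array), and the dash and bar are the mean and SD of 3. In each host some HuD KO squares stand above and some below the WT circles, and in Trim37 the mean of 1 circle is 4.37 in WT and 0.09 in HuD KO.

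In Cdk13, a kinase of the RNA polymerase II tail, a short intronic circle of 664 bp was lower and 4 exonic ones were higher. The level of mmu_circRNA_26117 was -1.36, -1.57 and -1.53 in WT and -4.74, -4.17 and -3.34 in HuD KO, where 2 of 3 arrays were well above background, and the change was -2.60. The exonic mmu_circRNA_005864 was at -2.35, -2.32 and -2.12 in WT and 0.52, 0.85 and -0.34 in HuD KO, a change of 2.61. In Pfkfb2, which sets the level of fructose 2,6-bisphosphate, 3 circles were lower and the HuD-bound mmu_circRNA_20855 changed by 0.01 with overlapping groups. The lowest, mmu_circRNA_20851 and mmu_circRNA_20852, were well above background on 2 of 3 HuD KO arrays and lay outside the gene's RefSeq span.

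The other hosts described with both directions each had 1 or 2 circles that were lower. Lin54, the DNA-binding subunit of a cell cycle complex, had 3 circles at 1.38 to 1.52 and mmu_circRNA_39029 at -1.26. Malat1, an abundant nuclear long noncoding RNA, had short listed circles of 87 to 1648 bp with changes of -1.30 to 1.22, and in its 3 HuD-bound circles the groups overlapped. The 4 circles of the unnamed locus XLOC_010800, of 64 to 160 bp on chromosome 17, changed by 1.16 to 1.34 in 3 cases and by -1.74 in mmu_circRNA_011174. The last of these overlapped Rn18s-rs5, a gene related to 18S ribosomal RNA, in RefSeq, and since ribosomal RNA genes are repeated in the genome the values of this locus are uncertain.

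Gene lists drawn up for the study's themes held few of these hosts. Of synaptic scaffold and glutamate signalling genes, Anks1b, Homer1 and Magi1 had 12 circles higher and 3 lower, with a median change of 1.18. Of ubiquitin ligase and conjugating genes on the list, Trim37, Tulp4 and Ube2e2 had 11 higher and 2 lower, with a median of 0.77. Ttc3, also an E3 ubiquitin ligase, was not on that list, and its 6 circles were all higher. Of RNA-binding and splicing genes, Cpsf6 and Strbp had 9 higher and 0 lower, with a median of 1.36. Of the genes listed for chromatin and transcription, Camta1 was a host, with 4 higher and a median of 0.48, while Lin54, Crebrf and Cdk13, described above, were not on that list. Beside these stand the 145 of 163 members with a change above 0, their median change of 1.36 over all 163, and the median of -0.11 over all probes tested. Over all circRNAs of the pool from listed genes, the numbers higher and lower were 50 and 15 for the synaptic list, 33 and 15 for the ubiquitin list, 36 and 12 for the RNA-binding list and 42 and 26 for the chromatin list. Many of these circRNAs entered through tables selected on this contrast, so nothing is read from the counts. No marker gene of striatal projection neurons, oligodendrocytes, astrocytes, microglia or endothelium was among the 34 hosts. In the pool the numbers of circRNAs of such markers were 8, 2, 1, 0 and 2, with median changes of 0.36 for striatal projection neurons, 0.13 for oligodendrocytes, 0.70 for the astrocyte circRNA and -2.25 for endothelium, and their part in the results was not tested.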

How the data were processed

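The deposited array files give 1-colour intensity per spot, read by Agilent Feature Extraction 11.0.1.1 and background-corrected, not scaled between arrays. The deposited tables and the study's HuD-bound list supplied annotation, 60-base sequences and membership, that is, which circRNAs were listed as higher, lower or bound. The tables, selected by the authors on fold change and p, also hold the authors' fold changes, p-values and normalized values, which were not used.

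Intensities were divided by the 75th percentile of the 14236 circRNA probes of each array and logged. A probe was tested when all 3 arrays of either group showed it well above background, by limma 3.58.1 (R 4.3.3), 3 against 3, Benjamini-Hochberg threshold 0.05. Simulated data were used to test the fit. Replicates are mice, and their number limits the precision. Members and lists were chosen with earlier results of these data known. Named were all HuD-bound circRNAs of hosts with 4 or more on that list and the 6 hosts with most circRNAs. Also named were the 5 hosts most widely split by mean change, the 5 narrowest one-direction hosts and opposite pairs sharing a site. The ranking by split kept circles with HuD KO arrays not well above background, as in Col19a1 and Cdk13. Alternatives covered scaling, background (normexp, offset 50, on median signals, as no mean signal was used), filters, blocks, weights and leaving out each array. Counts over all members and hosts include 2 hosts that are not reported here by name, in the gene lists or in the plot of hosts.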

Additional observations from a re-analysis of the deposited data

How the results depend on the processing

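Of the 24 HuD-bound circRNAs of 6 hosts, the number called higher was 20, with 0 lower. It was 5 higher and 2 lower with scaling on the control probes, 13 higher with scan as a random block, 9 higher with a fold change over 2 also required, and 13 to 21 higher with 1 array left out (13 without WT replicate 2). Also, 1 was called lower with normexp and the 75th percentile, with array weights, and without HuD KO replicate 3 (leaving out 1 array gave 0 to 1 lower). Under the control-probe scaling the change turned to -0.25, -0.35 and -0.0902 for mmu_circRNA_006045, mmu_circRNA_013240 and mmu_circRNA_018655 of Mboat2, to -0.38, -0.24, -0.15 and -0.39 for mmu_circRNA_010432, mmu_circRNA_19351, mmu_circRNA_37972 and mmu_circRNA_37975 of Camta1, to -0.23 for mmu_circRNA_26706 of Homer1, to -0.54 and -0.37 for mmu_circRNA_27137 and mmu_circRNA_27143 of Ube2e2, and to -0.19 and -0.39 for mmu_circRNA_30201 and mmu_circRNA_30205 of Tulp4. The change of mmu_circRNA_27147 of Ube2e2 turned to 0.0359 with quantile normalization and to 0.23 without scaling. Among single calls, those of mmu_circRNA_37975 were lost with the same sign in 11 of 20 alternatives, of mmu_circRNA_010432 and mmu_circRNA_26706 in 8 of mmu_circRNA_27143 in 5, of mmu_circRNA_017958 and mmu_circRNA_37972 in 4 and of mmu_circRNA_013240 in 3, beside the reversals above, while the calls of mmu_circRNA_19175, mmu_circRNA_30196, mmu_circRNA_002573, mmu_circRNA_005340 and mmu_circRNA_010003 held in all 20. Scaling on the control probes gave 90.1% of site-sharing pairs in the same direction. The cause was not tested.

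The number of hosts with all circRNAs in one direction was 22 of 34, and 19 to 24 under the other scalings, filters and left-out arrays. It was 12 of 13 for exonic circRNAs only, 98 of 138 for hosts with 3 or more circRNAs and 14 of 18 for hosts with 5 or more. With exonic circRNAs only, 100% of pairs with a shared site and 95.7% of the others had the same direction. Without the HuD-bound list these were 100% and 88.5%, and with hosts of 5 or more circRNAs 100% and 90.3%. Leaving out arrays gave 98.6% in each case for the former and 83.7% to 84.8% for the latter. Leaving out pairs with both ends within 5 bases, or pairs whose sequences share 20 or more bases, was chosen after seeing the data and gave 98.3% and 95.2% for pairs with a shared site and 83.5% and 82.3% for the others.

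The replicate numbers did not pair the mice (correlations of deviations of -0.009, -0.029 and -0.078), and the replicate block gave 16 of the 24 called higher. The 3 arrays per group limit what can be called.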
